A study of Mus musculus with 16 samples.

Results

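Potassium channel genes were followed across FACS-sorted cells from dissociated whole mouse brain. The members are the genes of the deposited count table whose symbol begins with Kcn, with 1 gene of that prefix left out by the rule that defined the set. Of the 22058 genes in the table, 93 met the rule, 84 of these had at least 1 count over the 16 libraries, and 28 passed a filter on low counts and were tested. The 28 tested genes hold 83.55% of all counts of the 93. Male C57BL/6 wildtype mice without treatment gave all libraries, and their age is not given in the labels. Animals 2, 3, 4 and 5 each gave 1 library of CD11b+ cells (microglia), 1 of EAAT2+ cells (astrocytes), 1 of Thy1+ cells (neurons) and 1 of input, titled pooled, so that n = 4 in every group. Sort gates removed O1+ and CD31+ cells, which mark mostly oligodendrocytes and endothelium, and the step that gave the input is not stated. The design allows the 6 pairwise comparisons of the groups.

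Potassium channels let potassium ions cross the cell membrane and so set the resting potential and end action potentials. Voltage-gated channels open on depolarisation, inward rectifiers and two-pore channels stay open near rest, and calcium-activated channels couple calcium entry to potassium efflux. Astrocytes are known for a large resting potassium conductance that buffers extracellular potassium, neurons for voltage-gated channels that shape firing, and microglia for a small set of channels that set their membrane potential.

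Values are CPM, which are counts scaled to a common library size. They come from tags at the 3′ end and are not divided by gene length, so levels are compared between libraries and not between genes. Sorted libraries held 116761 to 1413564 counts and input libraries 1702665 to 2811080, with neurons the shallowest group (up to 393199). Markers of the labelled cell type were high in each sorted group: the summed level of 11 microglia markers was 34530 to 56870 CPM in microglia and 8276 to 9767 in the input, that of 12 astrocyte markers was 31270 to 47070 in astrocytes and 7641 to 14350 in the input, and that of 12 neuron markers was 3303 to 5540 in neurons and 1131 to 1813 in the input. None of these markers was at 0 in all libraries of its group. The growth hormone transcript Gh, a pituitary product picked after its values were seen, lay between 110 and 250 counts in every library of animals 2, 3 and 4 (12 in all), while total counts of these libraries differ 24.1-fold. An estimate of transcripts shared between the pooled libraries, taken from the lowest Gh count, comes to 1.70% of counts in the library with the least (input 3) and 50.0% in the one with the most (neurons 2), and the tests were repeated with this estimate subtracted, for the 8710 genes that then passed the filter. The estimate can exceed what was counted. For Kcnk6 it is 4.78 to 4.80 counts in each neuron library, while the neuron libraries held 12 counts together. The subtraction may therefore take too much from low values. In bulk samples, fewer cells of a type and less RNA per cell cannot be told apart.

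Potassium channel transcripts were least abundant in microglia. Their summed level was 752 ± 94.2 CPM (SD, n = 4) in microglia, 1490 ± 118 in the input, 2275 ± 281 in neurons and 2497 ± 315 in astrocytes. The 4 microglia libraries held 640.1 to 858.5 CPM and did not overlap with any other group, whereas astrocytes (2030 to 2711 CPM) and neurons (2033 to 2616 CPM) overlapped. Families differed in where they stood highest. Two-pore channels summed to 879.9 ± 150.4 CPM in astrocytes, 469.9 ± 182 in neurons, 452 ± 56.8 in microglia and 286 ± 24.2 in the input. Voltage-gated pore-forming subunits summed to 952 ± 166 CPM in neurons, 595 ± 121 in astrocytes, 563 ± 52.6 in the input and 129 ± 42.1 in microglia. Of the 28 tested genes, 13 had their highest mean in neurons, 9 in astrocytes, 3 in microglia and 3 in the input. The shares of all tested genes by highest group were not computed, so these counts have no background beside them.

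**Figure D1:**
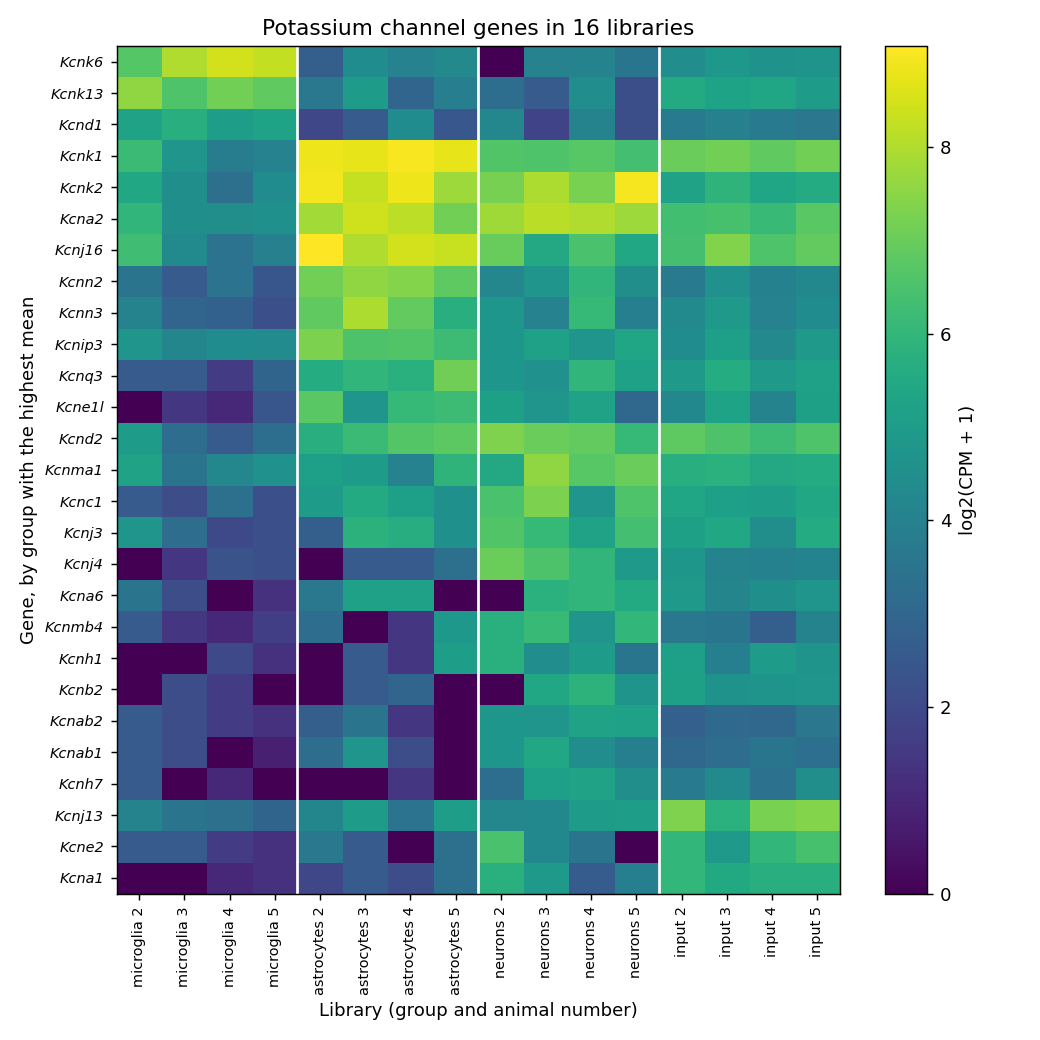
Levels of 27 of the 28 tested potassium channel genes (rows, by the group with the highest mean) in the 16 libraries (columns, by group and animal), as log2(CPM + 1) in colour. Microglia columns are dark (low) for most genes apart from Kcnk6, Kcnk13 and Kcnd1, while astrocyte and neuron columns are bright (high) over different blocks of genes.

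Against the input, microglia had 3 genes higher and 24 lower by edgeR's quasi-likelihood test at an adjusted p of 0.05 (Benjamini-Hochberg over 9091 genes), where 24.1% of all tested genes were called higher and 29.8% lower. The median log2 fold change was -2.51 over the 28 genes and -0.04 over all tested genes. Libraries of microglia and input did not overlap for 24 of the 28, against 52.4% of all genes. Astrocytes had 9 genes higher and 8 lower than the input, with backgrounds of 16.3% and 19.1%, a median of -0.17 against -0.09, and 16 genes without overlap where the share of all genes was 37.8%. Neurons had 8 higher and 3 lower, with backgrounds of 11.2% and 13.7%, a median of 0.41 against -0.11, and 10 genes without overlap where the share was 28.6%. A gene passes the filter by being high in some group. Kcnd1 passed through microglia alone and Kcnab2 through neurons alone, with no library of another group at the cut. Kcnj4, Kcnmb4 and Kcnab1, among others, would not have passed without the neuron libraries. These counts therefore describe the tested genes and support nothing about the 93.

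Between sorted groups, microglia had 3 genes higher and 15 lower than astrocytes (backgrounds 23.7% and 26.1%), and 3 higher and 24 lower than neurons (backgrounds 20.2% and 24.4%). The medians were -2.39 and -3.32, where those of all genes were -0.02 and -0.03. Astrocytes had 6 genes higher and 8 lower than neurons (backgrounds 14.8% and 13.7%), with a median of -0.62 against -0.04. Libraries did not overlap for 16 genes between microglia and astrocytes (37.2% of all genes), 23 between microglia and neurons (30.8%) and 7 between astrocytes and neurons (19.9%). Leaving libraries out changes which genes pass the filter, so such counts cannot be set against 8 of 28 one to one. With astrocytes 3 and 5 left out, 20 of 48 members then tested were lower in astrocytes than in neurons, as were 15.2% of 10894 genes, and 10 of the 20 were not among the 28. The count ran from 13 to 16, of 32 to 36 members tested, with any 1 of astrocytes 2, astrocytes 3, astrocytes 5, neurons 4 or neurons 5 left out, where 11.3% to 14.6% of all genes were lower. It was 8 of 30 without neurons 3 (10.9% of all genes), 9 of 30 without astrocytes 4 (11.4%) and 11 of 32 without neurons 2 (13.6%). Comparisons that share a group share its libraries and are not independent of each other.

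**Figure D2:**
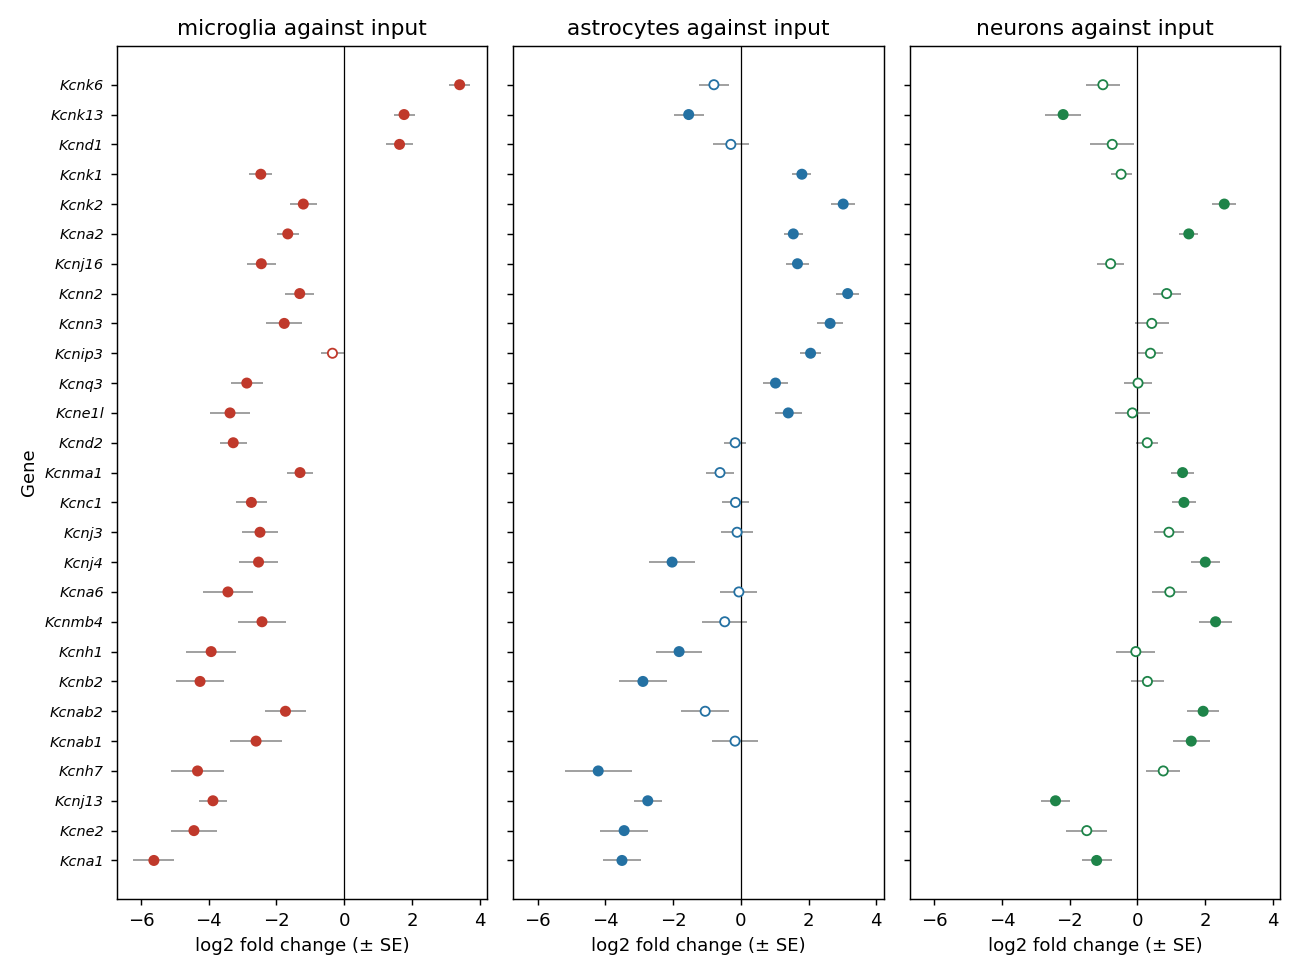
Log2 fold change of 27 tested genes against the input in microglia, astrocytes and neurons (points, with bars for the standard error), filled where the adjusted p is below 0.05. In microglia Kcnk6, Kcnk13 and Kcnd1 lie to the right of 0 and the other filled points to the left, while astrocytes and neurons have filled points on both sides.

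Two-pore channels carry background potassium currents, and 4 of the 14 were tested. Kcnk6 and Kcnk13 were high in microglia, Kcnk1 in astrocytes, and Kcnk2 in both astrocytes and neurons. Of all potassium channel counts in microglia, Kcnk6 made up 40.8% and Kcnk13 17.1%. Kcnk6 (ENSMUSG00000046410) lies on chromosome 7 from 29221926 to 29232515, on the minus strand, in GRCm38 coordinates of GENCODE M21. Kcnk13 (ENSMUSG00000045404) lies on chromosome 12 from 99964499 to 100062682, on the plus strand. Kcnk1 (ENSMUSG00000033998) lies on chromosome 8 from 125995170 to 126030685, on the plus strand, and Kcnk2 (ENSMUSG00000037624) lies on chromosome 1 from 189207930 to 189402273, on the minus strand.

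Promoters of 4 channels are printed here to show the sequence in front of genes that stood highest in different groups. They are RefSeq sequences of GRCm38.p6 from 250 bases before to 50 bases after the annotated start, and 68 of the 93 members matched an entry by symbol. Kcnk13 is 1 of the 3 genes high in microglia, beside Kcnk6 and Kcnd1. Kcnk1 was highest in astrocytes, and Kcnj13 and Kcne2 were highest in the input. Capitals mark matches on either strand to GAGGAA (the core of sites of the myeloid factor PU.1 and other ETS factors), CCAAT or TATAAA, and no matches overlap in these windows.
Kcnk13 promoter, chr12:99964249-99964548, plus strand: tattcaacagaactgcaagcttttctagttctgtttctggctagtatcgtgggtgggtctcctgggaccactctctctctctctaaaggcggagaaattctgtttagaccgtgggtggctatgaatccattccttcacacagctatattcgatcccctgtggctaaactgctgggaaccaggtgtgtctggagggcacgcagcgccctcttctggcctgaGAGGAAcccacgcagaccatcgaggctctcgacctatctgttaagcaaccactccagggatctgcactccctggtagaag
Kcnk1 promoter, chr8:125994852-125995151, plus strand: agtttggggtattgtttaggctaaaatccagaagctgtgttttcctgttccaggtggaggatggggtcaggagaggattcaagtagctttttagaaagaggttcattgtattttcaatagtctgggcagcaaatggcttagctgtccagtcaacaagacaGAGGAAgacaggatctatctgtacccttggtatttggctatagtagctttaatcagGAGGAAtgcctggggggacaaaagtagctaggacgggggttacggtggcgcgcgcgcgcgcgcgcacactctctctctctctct
Kcnj13 promoter, chr1:87394680-87394979, minus strand: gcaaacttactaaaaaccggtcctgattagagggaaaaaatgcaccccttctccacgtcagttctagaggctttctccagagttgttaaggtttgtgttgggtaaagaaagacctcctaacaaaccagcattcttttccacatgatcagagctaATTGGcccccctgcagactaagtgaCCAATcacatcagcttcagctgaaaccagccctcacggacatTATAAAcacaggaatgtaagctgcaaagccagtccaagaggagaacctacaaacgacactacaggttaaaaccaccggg
Kcne2 promoter, chr16:92292139-92292438, plus strand: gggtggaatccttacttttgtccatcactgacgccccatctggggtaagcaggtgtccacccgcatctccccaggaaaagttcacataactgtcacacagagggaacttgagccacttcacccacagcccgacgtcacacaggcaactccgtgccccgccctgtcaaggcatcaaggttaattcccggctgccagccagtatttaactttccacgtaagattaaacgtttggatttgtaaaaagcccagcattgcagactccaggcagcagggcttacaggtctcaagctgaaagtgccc
GAGGAA was found 1 time in the Kcnk13 promoter, 2 times in that of Kcnk1 and not in the windows of Kcnj13 and Kcne2. It is present in 28.3% of the 32851 promoters in the table. CCAAT occurs 2 times and TATAAA 1 time in the Kcnj13 window, and these motifs are present in 37.4% and 13.6% of all promoters. The Kcne2 window, the first of 2 starts in the table, holds none of the 3. A match describes these letters and is not evidence of binding.

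Kcnk6 encodes a potassium efflux channel that has been studied in macrophages ahead of inflammasome activation. It stood at 103, 255, 355 and 307 CPM in microglia of animals 2, 3, 4 and 5, the order used for all values below. The input held 21, 27.9, 24.3 and 25.1 CPM, astrocytes 5.71, 20.6, 15.2 and 18.3 and neurons 0, 15.5, 15.6 and 10.7. Every microglia library lay above every library of the other groups, and microglia 2 was the lowest of the 4. The summed level of 6 monocyte and neutrophil markers was 2834, 3452, 10500 and 3024 CPM in microglia and 436 to 1382 in the input. It was highest in microglia 4, as was Kcnk6, and the part of these cells in the microglia values was not tested. The log2 fold change was 3.41 ± 0.32 (SE) against the input with an adjusted p of 1.27e-09 by edgeR, 4.20 ± 0.41 against astrocytes and 4.43 ± 0.45 against neurons. With the shared estimate subtracted, the last 2 were 6.36 and 7.60. Kcnk6 then held 0 CPM in all astrocyte libraries but astrocytes 4 (6.76) and in all neuron libraries but neurons 3 (2.58). Both values therefore rest on very few counts.

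Kcnk13 encodes a constitutively open channel known to set the resting potential of microglia. Its levels were 191, 95.1, 142 and 117 CPM in microglia and 46.3, 37.8, 40.1 and 31.1 CPM in the input. Astrocytes held 11.4, 30.9, 6.76 and 13.7 CPM and neurons 8.8, 5.17, 20.8 and 3.55 CPM. Microglia did not overlap with any group, and astrocytes and neurons lay below every input library. Microglia exceeded the input by a log2 fold change of 1.77 ± 0.31 (adjusted p = 1.45e-05, edgeR). Astrocytes were lower than the input at -1.54 ± 0.44, a call that was lost without astrocytes 4 (-1.02, adjusted p = 0.121, edgeR). Neurons were lower at -2.19 ± 0.53, which became -2.89 without neurons 4 and -4.78 with the shared estimate subtracted. After subtraction only neurons 4 held Kcnk13 among the neuron libraries (5.19 CPM), so that last value rests on very few counts.

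Kcnk1, a two-pore channel of the astrocyte resting conductance, stood at 457, 433, 507 and 429.8 CPM in astrocytes and 126, 141, 116 and 141 CPM in the input. Neurons held 96.8, 95.6, 104 and 81.7 CPM and microglia 72.4, 25.5, 13.2 and 15.4 CPM. No 2 groups overlapped, with the order astrocytes, input, neurons, microglia. Astrocytes exceeded the input at a log2 fold change of 1.80 ± 0.28 (adjusted p = 9.51e-06, edgeR) and neurons at 2.28 ± 0.32. Microglia were lower than the input at -2.46 ± 0.34. Their raw counts of 14, 15, 13 and 21 compare with a shared estimate of 8.08 to 8.11 counts per library, and the fold change was -3.44 once this was subtracted. For neurons against the input the change of -0.48 ± 0.31 did not pass the test.

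Kcnk2, a channel gated by stretch and lipids, stood at 485, 309, 456 and 215 CPM in astrocytes and 149.6, 250.5, 151 and 497 CPM in neurons. The input held 36.6, 58.5, 39.5 and 46.9 CPM and microglia 41.4, 22.1, 9.12 and 20.5 CPM. Both astrocytes and neurons lay above the input in all 4 libraries, and they overlapped with each other. The log2 fold change against the input was 3.02 ± 0.35 in astrocytes (adjusted p = 1.56e-07, edgeR) and 2.57 ± 0.35 in neurons (adjusted p = 2.81e-06). Neurons 5, the library with the highest Kcnk2 level among neurons, also held 83340 CPM of 6 pituitary markers, where the other neuron libraries held 627.6 to 1449. Without animal 5 the neuron fold change against the input was 2.06. Astrocytes and neurons did not differ past the threshold (0.46 ± 0.34 for astrocytes against neurons). Astrocytes were called higher without animal 5 (1.15, adjusted p = 0.0161, edgeR) and without neurons 5 (0.96, adjusted p = 0.0292). Microglia were lower than the input at -1.21 ± 0.40, and that call was lost without microglia 4 (-0.71, adjusted p = 0.179, edgeR).

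**Figure D3:**
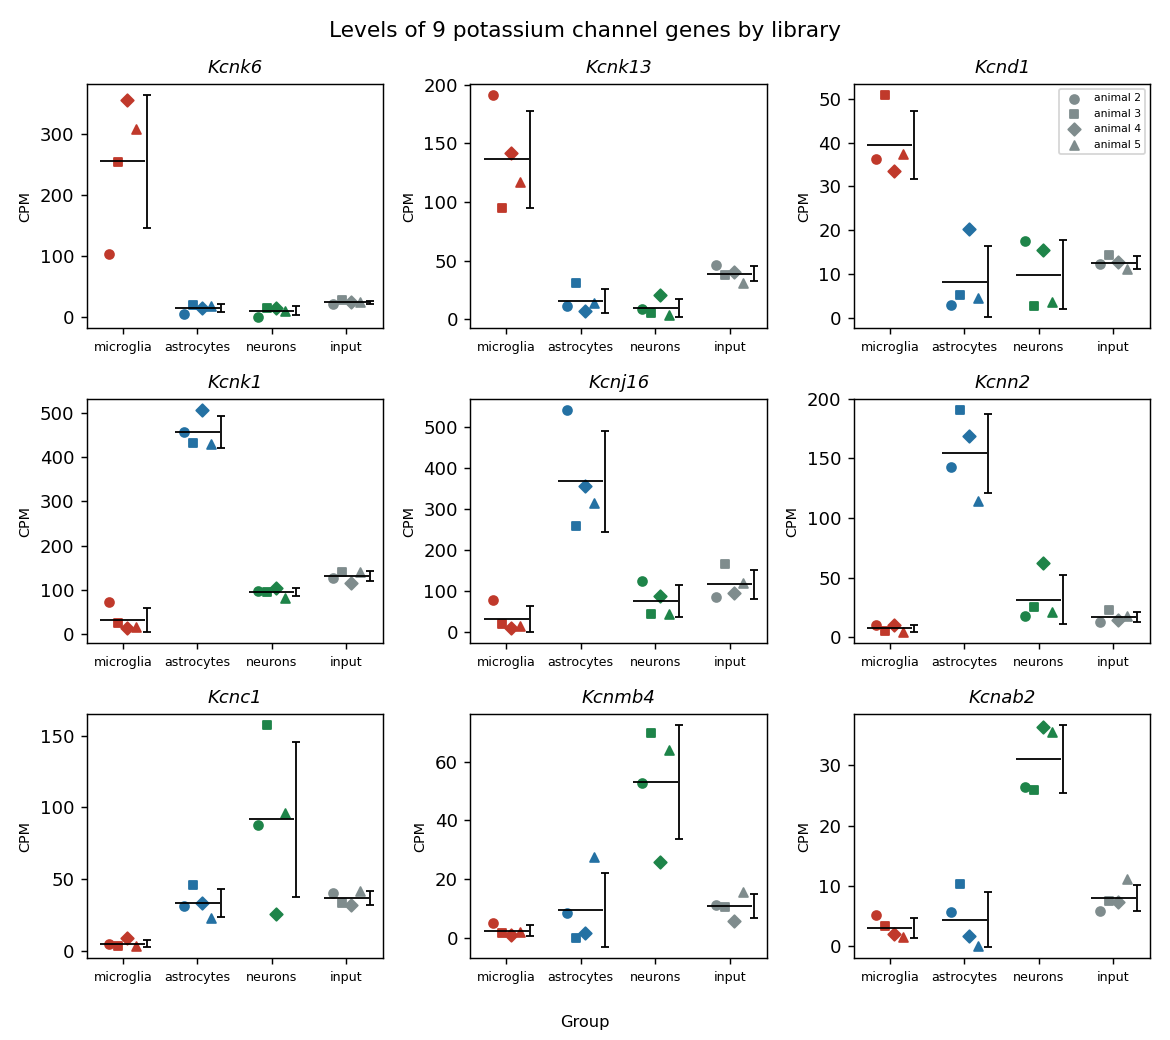
CPM of 9 potassium channel genes in each library, grouped as microglia, astrocytes, neurons and input, with 1 marker shape per animal, a line for the group mean and an error bar of 1 SD. Kcnk6, Kcnk13 and Kcnd1 separate microglia from the other groups, whereas the other panels are highest in astrocytes or in neurons.

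Inward rectifiers conduct potassium best near and below the resting potential, and 4 of the 14 were tested. Kcnj16, whose product joins the main astrocyte inward rectifier and makes it sensitive to pH, stood at 542, 258, 355 and 316 CPM in astrocytes and 84.2, 165, 94.9 and 119 CPM in the input. Neurons held 123, 43.9, 88.3 and 42.6 CPM and microglia 77.6, 18.7, 10.1 and 14.6 CPM. Astrocytes lay above all libraries of every other group, while neurons overlapped with the input. Astrocytes exceeded the input at 1.67 ± 0.35 (log2 fold change, adjusted p = 0.000369, edgeR) and neurons at 2.46 ± 0.41. Microglia were lower than the input at -2.45 ± 0.42, which was -2.90 without microglia 2 and -3.13 without all libraries of animal 2.

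Kcnj4, a strong inward rectifier of forebrain neurons, stood at 132, 93, 62.3 and 28.4 CPM in neurons and 27.4, 15.8, 14.8 and 16.2 CPM in the input. Astrocytes held 0, 5.16, 5.07 and 9.14 CPM and microglia 0, 1.7, 4.05 and 3.66 CPM. Neurons exceeded every library of the other groups, and astrocytes overlapped with microglia. The log2 fold change of neurons against the input was 2.01 ± 0.42 (adjusted p = 0.0008, edgeR). Kcnj4 would not have passed the filter without the neuron libraries. Without the filter the change was 1.95 ± 0.43 (adjusted p = 0.000161, edgeR). Astrocytes were lower than the input at -2.03 ± 0.67, but not past the threshold without astrocytes 2 (adjusted p = 0.101, edgeR), without astrocytes 4 (0.0777) or without input 2 (0.0583). Kcnj3, a subunit of G protein-gated channels, stood at 96.8, 67.2, 36.4 and 81.7 CPM in neurons, 34.5, 41.3, 21.6 and 46.9 in the input, 5.71, 56.7, 49 and 22.9 in astrocytes and 25.9, 8.49, 3.04 and 3.66 in microglia. Every pair of groups overlapped for Kcnj3 except microglia and neurons. Microglia were lower than the input (-2.49 ± 0.54), astrocytes (-2.38 ± 0.61) and neurons (-3.42 ± 0.59), the only calls for this gene.

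Of 8 channels activated by calcium or sodium, 3 were tested, and they split between astrocytes and neurons. Kcnn2 and Kcnn3, small-conductance channels opened by calcium through calmodulin, were both high in astrocytes. Kcnn2 stood at 143, 191, 169 and 114 CPM in astrocytes and 12.6, 23, 14.8 and 17.9 CPM in the input. Neurons held 17.6, 25.8, 62.3 and 21.3 CPM and microglia 10.3, 5.09, 10.1 and 4.39 CPM. Astrocytes did not overlap with any group, and the log2 fold change of 3.16 ± 0.33 against the input (adjusted p = 3.93e-08, edgeR) was the largest increase over the input among the tested members in astrocytes. Kcnn3 stood at 117, 248, 120 and 50.3 CPM in astrocytes and 19.4, 28.2, 15.3 and 20.5 CPM in the input. In neurons it held 26.4, 15.5, 67.5 and 14.2 CPM and in microglia 15.5, 6.79, 6.08 and 3.66 CPM. Astrocytes lay above the input at 2.64 ± 0.39, and their lowest library, astrocytes 5, overlapped with neurons 4. Against neurons the fold change was 2.21 ± 0.49, or 2.94 without neurons 4. Microglia were lower than the input for both genes, at -1.31 ± 0.43 and -1.77 ± 0.53. Without microglia 5 the adjusted p-values by edgeR were 0.0903 and 0.0503.

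Kcnma1, the pore of the large-conductance channel gated by calcium and voltage, stood at 44, 188, 104 and 128 CPM in neurons and 50.5, 55, 43.8 and 46.9 CPM in the input. Astrocytes held 34.2, 30.9, 15.2 and 59.4 CPM and microglia 36.2, 10.2, 17.2 and 23.4 CPM. Neurons 2 lay below the highest input libraries and the other neuron libraries above all of them. Neurons exceeded the input at 1.33 ± 0.35 (adjusted p = 0.00498, edgeR), but without neurons 3 the adjusted p was 0.0787. Kcnmb4, the beta subunit of this channel that is typical of neurons, stood at 52.8, 69.7, 26 and 63.9 CPM in neurons and 11.4, 10.7, 5.8 and 15.8 CPM in the input. Its levels were 8.56, 0, 1.69 and 27.4 CPM in astrocytes and 5.17, 1.7, 1.01 and 2.19 CPM in microglia. Neurons lay above all input libraries, with a log2 fold change of 2.31 ± 0.48 (adjusted p = 0.000686, edgeR). Kcnmb4 would not have passed the filter without the neuron libraries, and the call held without the filter. Neurons exceeded astrocytes too, at -2.78 ± 0.65 for astrocytes against neurons and -3.89 without astrocytes 5.

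Voltage-gated pore-forming subunits were tested for 11 of 40 genes. Kcna2, a low-threshold channel of axons, stood at 220, 284, 254 and 213 CPM in neurons and 226, 346, 287 and 142 CPM in astrocytes. The input held 80.0, 86, 68.6 and 107 CPM and microglia 62.1, 22.1, 21.3 and 22.7 CPM. Neurons and astrocytes overlapped and both lay above the input, at 1.52 ± 0.29 and 1.55 ± 0.28 (log2 fold change, adjusted p = 0.000236 and 7.4e-05, edgeR). Between astrocytes and neurons the difference was 0.03 ± 0.29, not past the threshold. Markers of neurons summed to 627 to 1198 CPM in astrocytes and markers of astrocytes to 2877 to 8615 CPM in neurons, with no marker of either list at 0 in all libraries. Their part in the shared Kcna2 level was not tested.

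Kcnd1 and Kcnd2 encode A-type channels, which inactivate fast, and they moved in opposite directions in microglia. Kcnd1 stood at 36.2, 50.9, 33.5 and 37.3 CPM in microglia and 12.2, 14.4, 12.7 and 11.1 CPM in the input. Astrocytes held 2.85, 5.16, 20.3 and 4.57 CPM and neurons 17.6, 2.58, 15.6 and 3.55 CPM. Microglia lay above every other library, at a log2 fold change of 1.63 ± 0.39 against the input (adjusted p = 0.00075, edgeR) and 1.93 ± 0.52 against astrocytes. It passed the filter through microglia alone and so had to differ there. Without the filter the change against the input was 1.71 ± 0.42 (adjusted p = 0.000261, edgeR). Without astrocytes 4, the highest astrocyte library, the change of microglia against astrocytes was 3.29. Kcnd2 stood at 31, 8.49, 5.07 and 8.78 CPM in microglia and 114, 92.8, 73.8 and 93.8 CPM in the input. Neurons held 158, 126, 119 and 67.5 CPM and astrocytes 51.4, 72.2, 99.8 and 109.7 CPM. Microglia lay below every other library at -3.28 ± 0.40 against the input, and the other 3 groups overlapped with no call among them.

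Kcnc1, a channel of fast-spiking neurons, stood at 88, 158, 26 and 95.9 CPM in neurons and 40.8, 33.7, 32.2 and 41.8 CPM in the input. Astrocytes held 31.4, 46.4, 33.8 and 22.9 CPM and microglia 5.17, 3.4, 9.12 and 3.66 CPM. Neurons 4 lay below the input and the other neuron libraries above it. The log2 fold change of 1.38 ± 0.36 against the input (adjusted p = 0.00507, edgeR) fell to 0.91 and lost its call without neurons 3 (adjusted p = 0.128).

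Kcnq3, a subunit of the M current that dampens repetitive firing, stood at 48.5, 61.9, 54.1 and 137 CPM in astrocytes and 29, 48.1, 29 and 35.4 CPM in the input. Neurons held 26.4, 23.2, 62.3 and 35.5 CPM and microglia 5.17, 5.09, 2.03 and 6.58 CPM. Astrocytes were above all input libraries, with astrocytes 5 far above the other 3. The log2 fold change of 1.02 ± 0.36 (adjusted p = 0.0271, edgeR) became 0.61 without astrocytes 5 (adjusted p = 0.199), and with animal as a block the adjusted p was 0.0514. Kcna6, a relative of Kcna2, stood at 0, 54.2, 62.3 and 46.2 CPM in neurons, 11.4, 36.1, 35.5 and 0 in astrocytes, 28.2, 16.5, 22.1 and 25.6 in the input and 10.3, 3.4, 0 and 1.46 in microglia. It was lower in microglia than in each other group, at -3.43 ± 0.73 against the input, or -2.71 without microglia 4.

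Kcna1, a partner of Kcna2 in axonal channels, was highest in the input. It stood at 63.1, 44.7, 51.7 and 51.2 CPM in the input and 52.8, 28.4, 5.19 and 14.2 CPM in neurons. Astrocytes held 2.85, 5.16, 3.38 and 9.14 CPM, and microglia had 3 counts over the group. The pooled input level was 54.6-fold (95% interval 18.6 to 266) that of microglia, and astrocytes were lower than the input at -3.51 ± 0.56 on the log2 scale (adjusted p = 1.5e-05, edgeR). Neurons overlapped with the input, and their change of -1.20 ± 0.44 (adjusted p = 0.0443) missed the threshold under most alternatives, with an adjusted p of 0.0846 with animal as a block and 0.0578 by DESeq2.

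Kcnb2, Kcnh1 and Kcnh7 were low in microglia. Kcnb2, a delayed rectifier, stood at 0, 41.3, 57.1 and 24.9 CPM in neurons, 34.5, 24.4, 24.8 and 26 in the input, 0, 5.16, 6.76 and 0 in astrocytes and 0, 3.4, 2.03 and 0 in microglia. It was lower than the input in astrocytes (-2.89 ± 0.71, or -4.12 without astrocytes 4) and in microglia (-4.26 ± 0.71, or -3.52 without microglia 5). Kcnh1, of the ether-a-go-go family, stood at 52.8, 20.7, 31.2 and 10.7 CPM in neurons, 33.7, 14.1, 31.1 and 24.7 in the input, 0, 5.16, 1.69 and 32 in astrocytes and 0, 0, 3.04 and 1.46 in microglia. Microglia lay below all input libraries (-3.93 ± 0.74). The astrocyte call (-1.82 ± 0.69, adjusted p = 0.0388, edgeR) was lost with animal as a block (0.065), by DESeq2 (0.0796) and without astrocytes 2 (0.182), 3 (0.0622) or 4 (0.28). It was -3.76 without astrocytes 5 and -4.34 without astrocytes 3 and 5, both still called. Kcnh7, of the erg family, stood at 8.8, 33.6, 36.4 and 21.3 CPM in neurons and 12.2, 19.2, 9.49 and 21.7 in the input. It had 1 count over the astrocyte libraries and 2 over the microglia libraries. The pooled input level was 21.9-fold (95% interval 3.87 to 870.4) that of astrocytes and 25.4-fold (95% interval 6.9 to 211) that of microglia. Its exons share 696 bases with those of Gca on the opposite strand, and the strand setting of the counting is not given in the sources used here.

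Auxiliary subunits change the gating or traffic of the pores, and 6 of 16 were tested, Kcnmb4 among them. Kcnip3, a calcium-binding partner of A-type channels, stood at 157, 92.8, 96.4 and 73.2 CPM in astrocytes and 20.6, 33.7, 18.5 and 28.1 CPM in the input. Neurons held 26.4, 36.2, 26 and 39.1 CPM and microglia 25.9, 17, 20.3 and 19.8 CPM. Astrocytes lay above every other library, at a log2 fold change of 2.06 ± 0.31 against the input (adjusted p = 6.06e-06, edgeR). It was the only tested gene without a call in microglia against the input (-0.35 ± 0.34). Kcne1l, a single-span subunit that modulates voltage-gated channels, stood at 108, 25.8, 67.6 and 73.2 CPM in astrocytes, 35.2, 25.8, 36.4 and 7.1 in neurons, 17.7, 37.8, 15.8 and 35 in the input and 0, 1.7, 1.01 and 4.39 in microglia. Astrocytes overlapped with the input, and the change of 1.40 ± 0.40 (adjusted p = 0.0072, edgeR) lost its call without animal 2 (adjusted p = 0.134) and without astrocytes 2 (0.05004).

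Kcnab1 and Kcnab2 encode beta subunits of the Kcna channels. Kcnab2 stood at 26.4, 25.8, 36.4 and 35.5 CPM in neurons and 5.89, 7.56, 7.38 and 11.1 CPM in the input. Astrocytes held 5.71, 10.3, 1.69 and 0 CPM and microglia 5.17, 3.4, 2.03 and 1.46 CPM. Neurons lay above every other library, at a log2 fold change of 1.94 ± 0.48 against the input (adjusted p = 0.00337, edgeR). It passed the filter through neurons alone and so had to differ there. Without the filter the change was 1.90 ± 0.57 (adjusted p = 0.0086, edgeR). Kcnab1 stood at 26.4, 41.3, 20.8 and 14.2 CPM in neurons, 7.16, 8.6, 10.6 and 8.95 in the input, 8.56, 25.8, 3.38 and 0 in astrocytes and 5.17, 3.4, 0 and 0.732 in microglia. Neurons lay above all input libraries at 1.59 ± 0.55 (adjusted p = 0.0335, edgeR), a call lost with animal as a block (0.124) and without neurons 3 (0.303), among other alternatives. Both genes were lower in microglia than in the input, and both of these calls were lost without animal 5 (edgeR adjusted p = 0.0582 for Kcnab1 and 0.218 for Kcnab2).

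Beside the neuron values above stand markers of other cells in the Thy1 gate. Summed levels in neurons were 554 to 1506 CPM for 8 T and NK cell markers, against 14.1 to 27.8 in the input, 2447 to 9321 for microglia markers and 2877 to 8615 for astrocyte markers. In astrocytes, microglia markers summed to 2278, 7410, 2414 and 7292 CPM in animals 2, 3, 4 and 5. Mitochondrial genes made up 14.3 to 21.3% of counts in neurons, 6.62 to 10.9% in the input, 8.28 to 10% in astrocytes and 2.57 to 5.65% in microglia. The part of these cells and of mitochondrial RNA in the potassium channel values was not tested. Exons of Kcna6 share 2355 bases, of Kcnj3 1621, of Kcnma1 1016 and of Kcnk2 604 with a noncoding gene on the opposite strand, and exons of Kcnk1, Kcnab1, Kcnn2 and Kcnmb4 share 179 to 693. Counted without strand, reads of such pairs cannot be told apart.

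Kcnj13 and Kcne2 had their highest mean level in the input. Kcnj13 encodes an inward rectifier of transporting epithelia, and Kcne2 a single-span subunit present in the epithelium of the choroid plexus, which secretes cerebrospinal fluid. Kcnj13 stood at 159.9, 55, 153 and 166 CPM in the input, 17.6, 18.1, 31.2 and 32 in neurons, 17.1, 30.9, 10.1 and 32 in astrocytes and 15.5, 10.2, 9.12 and 6.58 in microglia. The input did not overlap with any sorted group, and input 3 was the lowest of its 4 libraries. The log2 fold change against the input was -3.88 ± 0.42 in microglia, -2.75 ± 0.42 in astrocytes and -2.42 ± 0.42 in neurons (adjusted p = 8.91e-09, 6.57e-06 and 8.83e-05, edgeR). Its exons share 623 bases with Gigyf2 on the opposite strand.

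Kcne2 stood at 63.1, 28.9, 63.3 and 85.3 CPM in the input and 88, 18.1, 10.4 and 0 CPM in neurons. Astrocytes held 11.4, 5.16, 0 and 9.14 CPM and microglia 5.17, 5.09, 2.03 and 1.46 CPM. Microglia and astrocytes lay below all input libraries, at -4.44 ± 0.68 and -3.44 ± 0.72 on the log2 scale, while neurons 2 lay above the input and the change of -1.49 ± 0.60 in neurons did not pass the test. Neurons were called lower at -2.51 without animal 2 (adjusted p = 0.00774, edgeR), at -2.53 without neurons 2 (0.00416), at -1.62 scaled by library totals only (0.0446) and at -1.54 without the filter (0.0125). The astrocyte change was -4.13 without astrocytes 2 and -2.58 without astrocytes 4. Input 3 was again the lowest input library. The summed level of 5 choroid plexus markers was 10320, 4463, 9762 and 12730 CPM in the input, and 7982, 2903, 3001 and 6884 CPM in neurons, so that input 3 and neurons 2 were also the lowest input and the highest neuron library for these markers. In microglia and astrocytes the sums were 482 to 2162 and 872 to 2826 CPM. Neurons 5, with 6884 CPM of the markers, had no Kcne2 counts. No choroid plexus marker was at 0 in all libraries of any group. Their part in the Kcnj13 and Kcne2 values was not tested.

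**Figure D4:**
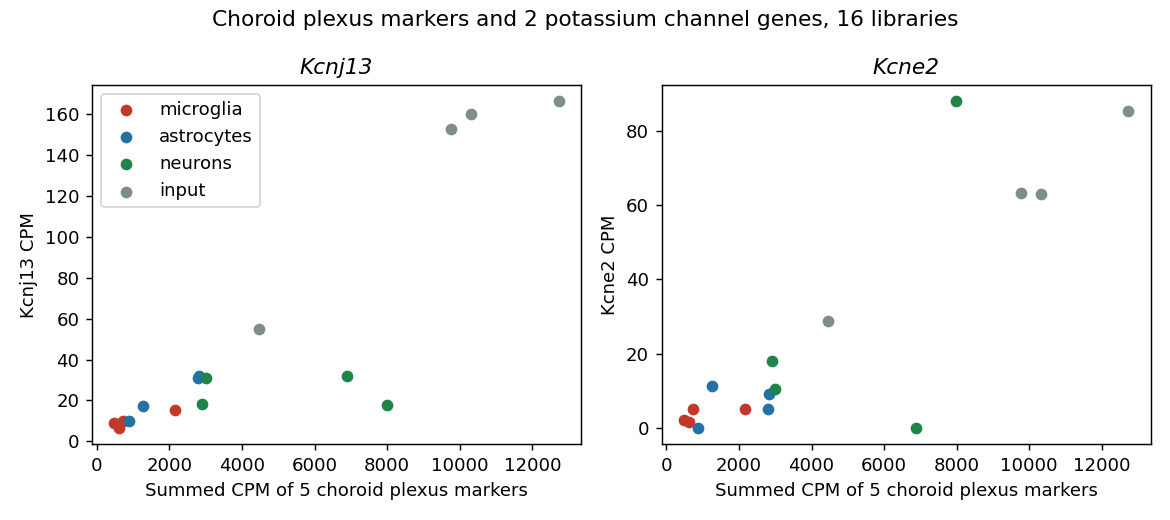
CPM of Kcnj13 (left) and Kcne2 (right) against the summed CPM of 5 choroid plexus markers in each of the 16 libraries, coloured by group. Input 3 has 4463 CPM of the markers with 55.0 CPM of Kcnj13 and 28.9 of Kcne2, and the other 3 input libraries stand higher on both axes.

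Of the 65 members that did not pass the filter, 56 had counts, 219 at most over all libraries, and 9 were at 0 in every library (Kcnmb3, Kcna10, Kcna3, Kcnj1, Kcna7, Kcnk16, Kcne1, Kcng3 and Kcnk18). A fit without the filter called 20 of the 56 lower and 2 higher in microglia than in the input, where 24.1% and 17.9% of all 16540 genes with counts were called. It called 12 higher and 1 lower in neurons (backgrounds 9.48% and 9.03%), and 1 higher and 7 lower in astrocytes (backgrounds 10.2% and 13%). The genes named next were chosen after their values were seen. Kcnj2, a strong inward rectifier, stood at 5.17, 8.49, 51.7 and 30.7 CPM in microglia and 8, 16.9, 6.86 and 13.2 CPM in the input, so that microglia 4 and 5 lay above all input libraries and the other microglia libraries did not. Microglia 4, its highest library, also held the highest sum of monocyte and neutrophil markers (10500 CPM), whose part in this value was not tested. Kcnn4, a calcium-activated channel of lymphocytes and other blood cells, stood at 26.4, 28.4, 119 and 17.8 CPM in neurons and 9.26, 7.22, 5.8 and 5.12 CPM in the input. Neurons lay above all other libraries for Kcnn4, and the T and NK cell markers in the same libraries summed to 1478, 1255, 1506 and 554 CPM. The highest Kcnn4 level and the highest marker sum were both in neurons 4, while neurons 2 held 1478 CPM of the markers with 26.4 CPM of Kcnn4. The part of T and NK cells in the Kcnn4 values was not tested.

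Kcnj8, the pore of the potassium channel of mural cells that ATP closes, had no counts in microglia and stood at 10.1, 15.5, 14.2 and 10.2 CPM in the input, 0, 5.17, 46.7 and 10.7 in neurons and 2.85, 5.16, 1.69 and 4.57 in astrocytes. The pooled input level was at least 13.2-fold higher than that of microglia, taking 3 counts over the group as the limit that a count of 0 allows. Kcnk9, a two-pore channel closed by acid, stood at 8.8, 31, 15.6 and 81.7 CPM in neurons and 8.42, 10.3, 1.58 and 7.25 CPM in the input, with neurons 5 the highest. That library gave 23 of the 39 counts of the group and held 83340 CPM of the pituitary markers, whose part was not tested. It had 1 count in astrocytes and 3 in microglia over the groups. Pooled neurons were 54.2-fold (95% interval 9.17 to 2194) the level of astrocytes, an interval that covers counting error only.

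A list of 27 genes for partners of these channels and related ion handling was set beside them, of which 17 were tested. In microglia 1 was higher and 12 lower than the input, where 24.1% and 29.8% of all tested genes were. In astrocytes 3 were higher and 6 lower (backgrounds 16.3% and 19.1%), and in neurons 6 higher and 2 lower (backgrounds 11.2% and 13.7%). Slc12a2, a sodium, potassium and chloride importer, was at 399 ± 77.5 CPM (SD, n = 4) in the input, and 105 ± 32.9 in astrocytes, a log2 fold change of -1.96 ± 0.28. It was called lower than the input in neurons too (109 ± 46.2 CPM, -1.96 ± 0.29) and in microglia (235 ± 15.6 CPM, -0.76 ± 0.26). Ank3, which anchors Kcnq channels at the axon initial segment, was at 552 ± 256 CPM in neurons, 159.7 ± 19 in the input and 31.9 ± 9.71 in microglia. The change in neurons was 1.81 ± 0.32 and that in microglia -2.43 ± 0.37. Lgi1, a secreted protein that regulates Kcna channels at synapses, was at 315 ± 115 CPM in astrocytes and 54.6 ± 5.69 in the input, a change of 2.53 ± 0.33.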

How the data were processed

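RNA of sorted mouse brain cells was measured by 3′ end sequencing with molecular identifiers, per the labels' protocols, which describe 1 pool, 1 lane and single-end reads of 65 bp. The authors deposited whole-number counts per gene and library. Subread 1.6.2, featureCounts, STAR, edgeR and GRCm38.p6 appear in the submitters' processing notes without their roles, and the strand setting is not given in the sources used here. All 28936 deposited counts of 100 or more have at most 2 significant digits, an error of up to 5%. The deposited normalized values were not used.

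Counts were fitted with edgeR 4.0.16 in R 4.3.3: genes above 20.1 CPM in at least 4 libraries (9091 genes), TMM scaling, and quasi-likelihood tests on a model of the 4 group means over all 16 libraries (common dispersion 0.0733). Tests are two-sided, adjusted by Benjamini-Hochberg over all tested genes, with a threshold of 0.05. Errors are SE for log2 fold changes and SD for CPM. The SE was derived from the test, as the absolute log2 fold change divided by the square root of its F statistic. A group with 1 to 3 counts was compared through pooled counts, as a ratio and its exact 95% interval, and a group at 0 against a floor of 3 counts over the group. Intervals and floors cover counting error only. The edgeR fit was tested on simulated counts, for microglia against the input.

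The animals pair the libraries by the labels. Across genes, same-animal libraries of different groups deviated together with r of -0.0976 to 0.113 (24 pairs). Animal as a block was an alternative, as were RLE scaling, library totals only, no filter, the 2 compared groups only, DESeq2 1.42.0, and leaving out libraries or animals. Added after the data were seen were leaving out animal 2 and subtracting shared transcripts. For the latter, the lowest Gh count of animals 2, 3 and 4 as a share of the pool's 27650 Gh counts (0.398%) was taken, for each gene, as the part of the pool found in every library; estimates under 0.5 count round to 0.

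The members and lists were chosen with earlier results of these data known. Values per library are given for the 20 tested members with the highest mean CPM and up to 6 per direction and comparison with the largest change and no overlap. Some genes that this rule names are not reported here.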

Additional observations from a re-analysis of the deposited data

Results flagged for a closer look

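Among 80 groups of 4 libraries with at least 20 counts, 7 held a library whose gap to the nearest of the others exceeded Dixon's 95% critical value for the share of the group's range, where chance gives about 1 in 20. Microglia 2, the shallowest microglia library, stood at 62.06 CPM for Kcna2 against 21.3 to 22.7 in the other microglia, at 31.03 for Kcnd2 against 5.07 to 8.78, and at 77.58 for Kcnj16 against 10.1 to 18.7. Its shared estimate is 30.4% of counts, against 3.77% to 9.93% in the other microglia. With the estimate subtracted, microglia 2 held 5.17 CPM of Kcnd2 against 0 to 5.12 in the other microglia. It then held 31.03 CPM of Kcna2 against 11.9 to 18.3, and 41.4 of Kcnj16 against 3.04 to 9.51. Input 2 stood at 34.51 CPM for Kcnb2 against 24.41 to 26.01 in the other input libraries. The same library stood at 27.36 CPM for Kcnj4 against 14.8 to 16.2. Input 3 stood at 55.01 CPM for Kcnj13 against 152.9 to 166.3, and it also had the lowest sum of choroid plexus markers. Astrocytes 5 stood at 137.2 CPM for Kcnq3 against 48.5 to 61.9. The part of depth and of these markers in the values was not tested.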

How the results depend on the processing

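Of 114 calls over the 28 genes and 6 comparisons, 93 held under every alternative that tested them and 21 were lost under at least 1. Calls of members that an alternative did not test are not counted as lost. None of the 1938 alternative values reversed. Without the filter, which adds 56 genes to the test, microglia had 5 genes higher and 43 lower than the input (17.9% and 24.1% of all genes), 23 lower than astrocytes (16.5%) and 52 lower than neurons (18.5%). Astrocytes then had 15 lower than the input (13%) and 25 lower than neurons (10.4%), and neurons had 20 higher than the input (9.48%). Fitted to only the 2 groups compared, 14 of 36 members tested were lower in astrocytes (20.3% of all genes) and 16 of 39 higher in neurons (16.4%) than the input, 8 of 11 lower in microglia (20.9%) and 2 of 13 lower in astrocytes (13%) than in neurons. These fits test other genes: of the 114 calls 88 held, 1 (Kcna1 in neurons against the input) missed the threshold and 25 belong to members not tested. Without astrocytes 3 and 5, 20 of 48 members tested were lower in astrocytes than in neurons (15.2% of all genes). Without animal 2, 5 of 36 were lower in neurons than in the input (12.4%). Leaving out 1 library gave 5 (without astrocytes 4) to 9 genes lower in astrocytes than in the input (10.5% to 19% of all genes). It gave 8 to 16 lower than in neurons (10.9% to 14.6%), with 30 to 36 members tested in both comparisons.

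With animal as a replicate block, microglia against the input kept 3 higher and 24 lower (21.4% and 28.9% of all genes). Astrocytes had 8 and 7 (14% and 17.5%), and neurons 7 and 2 (8.92% and 12%). The block ended 5 calls: Kcnh1 and Kcnq3 in astrocytes and Kcnab1 and Kcna1 in neurons against the input, and Kcnab1 in microglia against astrocytes. It changed no other call.

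Subtracting shared transcripts left 106 of the 114 calls; 4 no longer passed the threshold although their fold changes were larger, and 4 could not be tested. It moved 61 called values by over 1.5 times, all away from 0. The estimate for a gene is nearly the same count in every library and so takes the largest share from low values. Shifts away from 0 are thus largely built in and are no support for the calls. Depth limits the low genes most: 56 members with counts stayed under the filter, and neurons 2 holds 116761 counts in all.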
